A study of Mus musculus with 148 samples.

Results

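Ccr1, Ccr2 and Cx3cr1, the chemokine receptors best known from myeloid cells, were followed through the immune cells of lungs and breast tumors. They are 3 of the 52634 genes counted, were taken by name, and all 3 were found in the plate tables. The mice were female C57BL/6 carrying a photoactivatable GFP (PA-GFP) and, apart from controls, received 500000 EO771-tdTomato cells, a mouse breast cancer line marked with a red fluorescent protein, in the mammary gland at 8 weeks of age. The tumor was resected 3 weeks later and the lungs were followed by CT. The data cover 3 control lungs without tumor cells, 3 Pre-MET lungs taken while the primary tumor was in place, 4 primary tumors (3 of them from the Pre-MET mice), 6 relapse-free lungs in which no metastasis was seen after resection, and, from metastatic lungs, 13 metastases, 14 pieces of distal normal tissue, 13 metastasis cores and 7 invasive margins.

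Most cells were sorted as CD31-negative and CD45-positive, and cores and margins by photoactivating GFP in the chosen region and sorting CD31-negative, GFP-positive cells, for few core plates with CD45 as well. The relapse-free lungs of mice 6 and 7 also hold plates sorted for or against photoactivated GFP with no niche chosen, a check that the study describes for control lungs, and they are kept here under their label. All tumor-bearing mice carried the same cancer line, and metastases were recognized by red fluorescence, so that cells which had lost it could be missed. The data come from 27 mice and 148 plates, and a sample is 1 tissue of 1 mouse with its plates pooled. It held 55 to 1974 immune cells and 48306 to 2745794 unique molecular identifiers (UMIs, 1 per captured mRNA molecule). The median cell held 3148 UMIs in primary tumors and 1013 to 1139 in the other tissues. Control plates were the only plates of their sequencing batch, so that batch and control tissue cannot be told apart.

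Chemokine receptors are G protein-coupled receptors that steer migrating leukocytes along gradients of secreted chemokines. Ccr2 binds Ccl2 and related ligands and is known for the release of Ly6c-positive (classical) monocytes from the bone marrow. Cx3cr1 binds Cx3cl1, which sits on endothelial cells, and is known from patrolling (nonclassical) monocytes, tissue macrophages and cytotoxic lymphocytes. Ccr1 binds Ccl3, Ccl5, Ccl6 and Ccl9 and is known from neutrophils, monocytes and macrophages.

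All 3 genes lie on chromosome 9 of mm10. Ccr1 (123962124 to 123968692, minus strand) and Ccr2 (124101950 to 124113557, plus strand) are separated by 133257 bases that hold Ccr3 and Ccr1l1, genes with 42 and 3 UMIs in all wells. Cx3cr1 (119901616 to 120069879, minus strand) ends 3892244 bases before Ccr1. Reads with several mapping positions had been excluded by the authors. To show the sequence from which the most abundant neutrophil receptor of the group is transcribed, the 250 bases before the annotated start of Ccr1 are given, from the RefSeq genome sequence of GRCm38.p6 (chr9:123968693-123968942, minus strand, 5′ to 3′):

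Ccr1: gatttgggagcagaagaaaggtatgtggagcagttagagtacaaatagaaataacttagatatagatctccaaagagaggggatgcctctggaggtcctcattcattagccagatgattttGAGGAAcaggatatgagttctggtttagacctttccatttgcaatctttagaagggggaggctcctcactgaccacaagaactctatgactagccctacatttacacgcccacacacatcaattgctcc

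The capitals mark the single match to GAGGAA, the core letters bound by the myeloid factor PU.1, on either strand. The same letters occurred in 23.3% of 32851 promoter windows of the genome, and CACCC had no match here and occurred in 52.0% of them. A match is a description of the letters only. The windows taken for Ccr2 (124101933 to 124102182) and Cx3cr1 (120068297 to 120068546) hold 233 and 250 bases of annotated exons. The first reaches into the gene span given above and the second lies within it, so neither is shown.

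Neutrophils were the main source of Ccr1 among the immune cells, and monocytes that of Ccr2 and Cx3cr1. In the 23425 annotated immune cells, 10170 UMIs of Ccr1, 15161 of Ccr2 and 1805 of Cx3cr1 were counted. Neutrophils, 16.96% of the cells, held 48.06% of the Ccr1 UMIs, and monocytes, 26.93% of the cells, held 33.47%. Monocytes held 72.79% of the Ccr2 UMIs and 67.31% of the Cx3cr1 UMIs. T cells and natural killer (NK) cells came next for Cx3cr1, with 12.19% and 12.08%.

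Levels were measured as UMIs per 1000000 UMIs (CPM) of the cells of 1 label in 1 sample, wherever there were at least 10 such cells, and are given as mean ± SD with n sums. At the level of lineages, Ccr1 averaged 930 ± 403 CPM in neutrophils (n = 42), 239 ± 117 in macrophages (n = 40), 178 ± 168 in monocytes (n = 62) and 83.8 ± 87.8 in dendritic cells (DC, n = 36). Ccr2 averaged 673 ± 226 CPM in monocytes, 279 ± 236 in DC, 253 ± 173 in NK cells (n = 45), 251 ± 238 in macrophages and 103 ± 94.8 in T cells (n = 61). Cx3cr1 averaged 81.3 ± 78.4 CPM in monocytes, 45.7 ± 56.3 in NK cells and 18.1 ± 25.8 in T cells. B cells, taken as cells that should lack these receptors, read 10.1, 24.9 and 2.36 CPM for Ccr1, Ccr2 and Cx3cr1 (n = 30). The Ccr2 value rests on the relapse-free lung of mouse 6, at 370.6 CPM from 8 UMIs in 27 cells, and was 13.01 ± 20.8 CPM over the other 29 sums, while Cx3cr1 was 0.868 ± 3.31 without the margin of mouse 17, which held 1 UMI. Each of the 8 marker lists was highest in the lineage it names, for all of its genes, with the alveolar list counted to macrophages. The authors named their clusters with the help of marker genes, so that this is no independent check of the labels. The labels come from the authors' clustering of the same cells, so that differences between labels are described here and not tested.

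**Figure D1:**
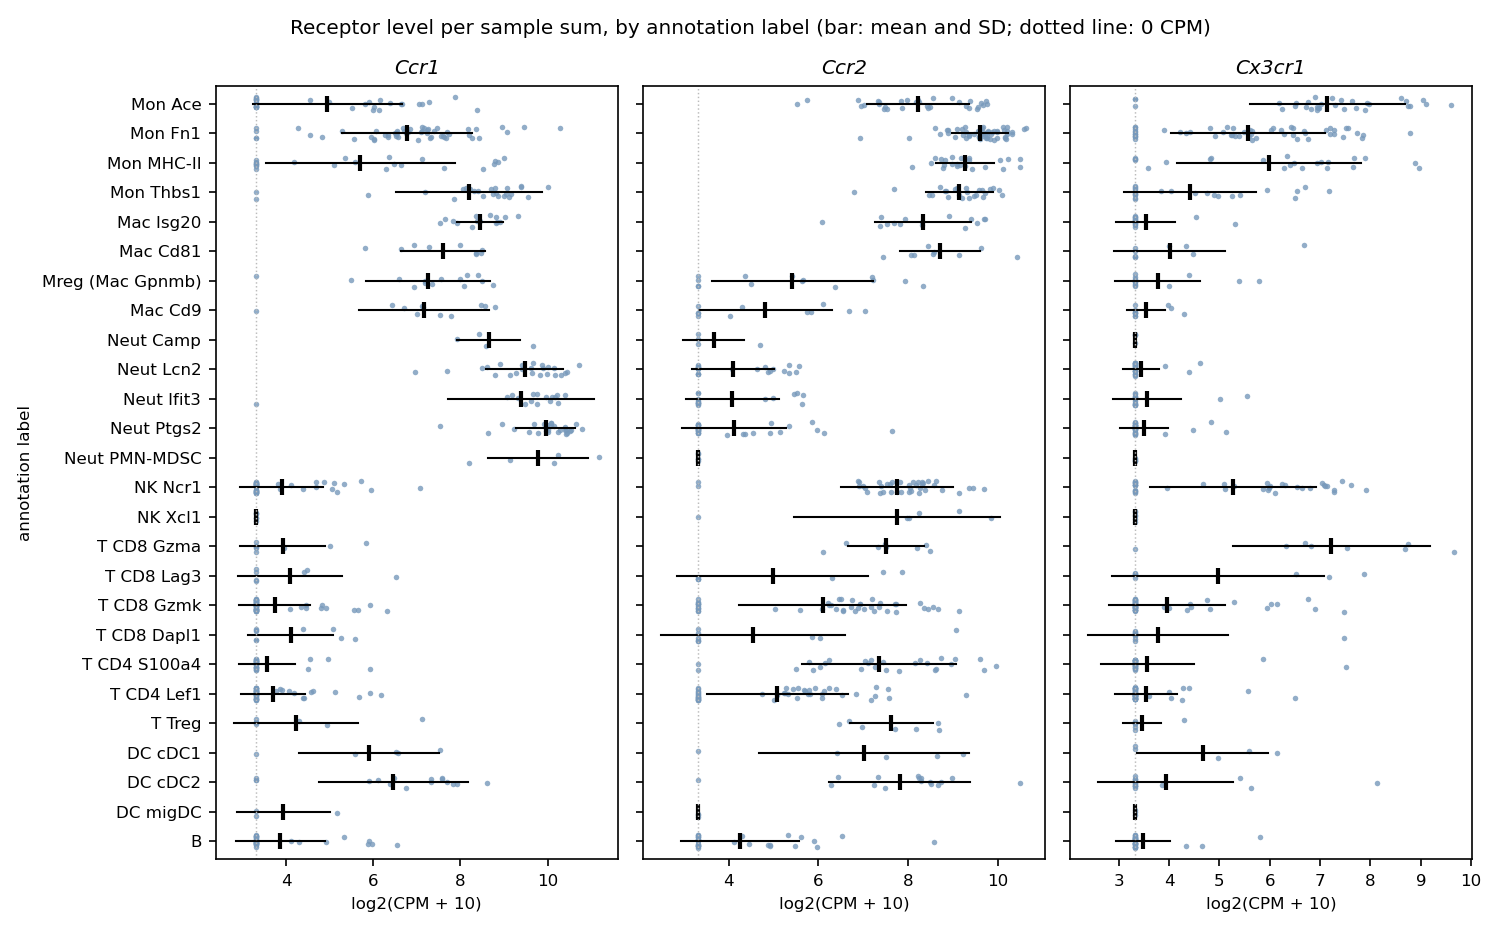
Level of Ccr1, Ccr2 and Cx3cr1 in each of 26 annotation labels, as log2 of CPM + 10; every point is the summed cells of 1 label in 1 sample, bars give mean and SD, and the dotted line marks 0 CPM. Ccr1 is highest in the neutrophil labels and Ccr2 in Mon Fn1, Mon MHC-II and Mon Thbs1. Cx3cr1 is highest in CD8 Gzma T cells and Mon Ace. The spreads are wide and overlap between neighbouring labels.

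Along the monocyte labels the 3 receptors ran in different orders. Mon Fn1, the most abundant monocyte label, had the highest mean Ccr2 of the 26 labels, at 826 ± 292 CPM (n = 54 sums), followed by Mon MHC-II at 672 ± 335 (n = 23) and Mon Thbs1 at 614 ± 246 (n = 25). Mon Ace, named for a gene of nonclassical monocytes, held 375 ± 260 CPM of Ccr2 (n = 32). Cx3cr1 was highest in Mon Ace, at 201 ± 179 CPM, followed by Mon MHC-II at 110.5 ± 134, Mon Fn1 at 67.9 ± 80.3 and Mon Thbs1 at 23.5 ± 36.9. Ccr1 was highest in Mon Thbs1, at 404 ± 236 CPM, against 163 ± 200 in Mon Fn1, 126 ± 174 in Mon MHC-II and 50.03 ± 74.3 in Mon Ace, where 15 of 32 sums held no Ccr1 UMI. For each gene the 26 labels make 25 neighbouring pairs in the order of the mean, and in 0 of them did the intervals of mean ± SD part.

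Within samples the same contrasts could be read label against label. In the 31 samples with both, Mon Ace was lower than Mon Fn1 in Ccr2 in 30, by a mean log2 ratio of -1.46 ± 1.15 (SD, on CPM + 10), and lower in Ccr1 in 27, by -1.84 ± 1.83. Cx3cr1 was higher in Mon Ace in 23 of the 31 and lower in 7, with a mean of 1.10 ± 1.52. Against Mon Thbs1, Mon Ace had more Cx3cr1 in 13 of 13 samples, by 2.88 ± 1.60. Mon Thbs1 was lower than Mon Fn1 in Ccr2 in 18 of 22 samples and higher in Ccr1 in 16 of 22. The Cx3cr1 order of Mon MHC-II and Mon Fn1 did not hold within samples. Of the 22 samples with both, Mon Fn1 was higher in 15 and lower in 7, with a mean log2 ratio of 0.46 ± 1.76. The mean CPM in these samples was 97.4 in Mon Fn1 and 112.4 in Mon MHC-II. The orders of Mon MHC-II and Mon Thbs1 did not hold within samples either. Of the 11 samples with both, Ccr2 was higher in Mon MHC-II in 4 and lower in 7, at means of 626 and 696 CPM. Cx3cr1 was higher in Mon MHC-II in 5 and lower in 6, at means of 46.8 and 26.9 CPM.

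The share of cells with a UMI, over the cells of all samples pooled and after each cell was thinned to 500 UMIs, ordered the monocyte labels as the mean CPM did for Ccr2 and Cx3cr1. For Ccr1 the order of Mon Fn1 and Mon MHC-II depended on the pooling, since Mon MHC-II was higher over pooled cells and the mean of the samples' own shares was 5.32% in Mon Fn1 and 5.14% in Mon MHC-II. Ccr2 was seen in 26.0% of Mon Fn1 cells (47.9% before thinning), 21.7% of Mon MHC-II (48.1%), 20.6% of Mon Thbs1 (44.2%) and 8.22% of Mon Ace (13.5%), against 1.04% of B cells (1.71%). Cx3cr1 was seen in 8.00% of Mon Ace cells (13.1%), 4.02% of Mon MHC-II (10.2%), 2.85% of Mon Fn1 (7.27%) and 1.62% of Mon Thbs1 (3.43%), against 0.0948% of B cells (0.284%). Ccr1 was seen in 17.0% of Mon Thbs1 cells (37.2%), 6.10% of Mon MHC-II (20.6%), 4.26% of Mon Fn1 (12.7%) and 0.945% of Mon Ace (2.69%), against 0.284% of B cells (0.853%). The median UMI counts per cell were 1503 in Mon Fn1, 1744 in Mon Thbs1, 1047 in Mon Ace and 1001 in B cells, so that the unthinned shares carry unequal depth.

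Macrophage labels separated by Ccr2 more than by Ccr1. Mac Cd81 and Mac Isg20 held 494 ± 372 (n = 9) and 394 ± 265 CPM (n = 15) of Ccr2, levels that overlap with Mon Ace. The regulatory macrophages (Mreg, labelled by Gpnmb in the annotation) held 73.5 ± 97.7 (n = 14) and the alveolar macrophages (Mac Cd9) 34.5 ± 42.4 (n = 11), against 24.9 ± 68.4 in all B cell sums and 13.01 ± 20.8 without that of mouse 6. Ccr1 covered a narrower range, with 363 ± 130 CPM in Mac Isg20, 220 ± 121 in Mac Cd81, 194 ± 123 in Mregs and 189 ± 137 in Mac Cd9. Cx3cr1 was low in all macrophage labels, at means of 2.00 to 13.5 CPM.

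In the 9 samples with both labels, Mregs were lower than Mac Isg20 in Ccr2 in 9, by a mean log2 ratio of -1.95, and lower in Ccr1 in 8, by -1.54. Mon Thbs1 exceeded Mregs in Ccr2 in 10 of 10 samples, by 3.29 ± 1.91. Against Mac Isg20, Mon Fn1 had more Ccr2 in 11 of 13 samples and more Ccr1 in 5 of 13. In these pairs the monocyte label had more Ccr2 in most samples, while in Ccr1 the order depended on the pair.

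Neutrophils carried Ccr1 almost alone of the 3 receptors. PMN-MDSCs, the label that the annotation sets apart as suppressive neutrophils, averaged 1096 ± 786 CPM of Ccr1 (n = 5), Neut Ptgs2 1065 ± 360 (n = 29), Neut Ifit3 856 ± 332 (n = 16) and Neut Lcn2 814 ± 393 (n = 24). Neut Camp, named for a granule gene of immature neutrophils, was the lowest at 435 ± 249 (n = 4). Neut Ptgs2 was above Mon Fn1 in Ccr1 in 28 of 28 samples, by 3.22 ± 1.37, and below it in Ccr2 in 28 of 28, by -5.48 ± 1.15. Among neutrophils, Neut Ptgs2 was above Neut Lcn2 in 14 of 18 samples and above Neut Ifit3 in 11 of 14. PMN-MDSCs were above Neut Ptgs2 in 2 of the 5 samples with both and below it in 3, at means of 1096 and 1125 CPM. The first place of PMN-MDSCs in the mean thus did not hold within samples. Ccr1 was seen in 27.5% of thinned Neut Ptgs2 cells and 35.3% of PMN-MDSCs. Ccr2 reached 0.655% of thinned neutrophils, which is not above the 1.04% of B cells and is read as background.

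NK and T labels differed from each other in Ccr2 and Cx3cr1 and held little Ccr1. NK Xcl1 and NK Ncr1 had Ccr2 at 374 ± 315 (n = 6) and 265 ± 170 CPM (n = 40). Mon Fn1 was above NK Ncr1 in Ccr2 in 36 of 36 samples, by 1.75 ± 1.10. Cx3cr1 averaged 56.2 ± 61.8 CPM in NK Ncr1, and was seen in 0 of 198 NK Xcl1 cells, which allows a share of cells with a UMI of up to 1.52% and does not bound the share that expresses the gene. In the 5 samples with both NK labels, NK Ncr1 was higher in Cx3cr1 in 4 and lower in 0. In Ccr2, NK Ncr1 was higher in 3 of these samples and lower in 2, at means of 477 and 390 CPM. The order of the NK labels in Ccr2 thus depended on the samples taken.

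Among T cells, CD8 Gzma cells, named for a granzyme of cytotoxic lymphocytes, had the highest mean Cx3cr1 of all labels, at 257 ± 265 CPM (n = 8 sums). The 8 values ran from 0 in the core of mouse 17 to 793.4 in the control lung of mouse 1, so that the mean rests on few sums. In the 7 samples with both labels, Mon Ace was above CD8 Gzma in 3 and below it in 4, with a mean log2 ratio of -0.03 ± 1.03. Ccr2 was at 264 ± 260 CPM in CD4 S100a4 cells (n = 27), 223 ± 139 in regulatory T cells (Treg, n = 7), 199.6 ± 108 in CD8 Gzma and 116 ± 123 in CD8 Gzmk (n = 45). The lowest means were those of CD8 Dapl1 at 69.9 ± 172 (n = 9), CD8 Lag3 at 65.0 ± 92.9 (n = 7) and CD4 Lef1 at 53.2 ± 97.4 (n = 46). CD8 Dapl1 held no Ccr2 UMI in 6 of its 9 sums and 525 CPM in its highest. CD8 Lag3 held none in 4 of 7, so that both means rest on few sums. CD4 Lef1 was below CD4 S100a4 in 25 of 26 samples and below Treg in 7 of 7. Ccr1 stayed near the B cell level in NK and T cells, at 8.17 and 5.14 CPM.

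In dendritic cells, cDC2 held 326 ± 323 CPM of Ccr2 and 128 ± 103 of Ccr1 (n = 16), and cDC1 245 ± 242 and 75.7 ± 65.1 (n = 5). Migratory DC, cells that have turned to lymph node homing, held no Ccr2 UMI in their 3 sums, and cDC2 was higher in Ccr2 and in Ccr1 in 3 of 3 samples with both.

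Over the means of the 26 labels, Pearson's r of log2(CPM + 10) was -0.207 between Ccr1 and Ccr2, -0.267 between Ccr1 and Cx3cr1, and 0.545 between Ccr2 and Cx3cr1. The 26 points share mice, libraries and the clustering that made them, and the values are descriptions. The 5 genes most like Ccr1 among 9040 were Cd300lf, Cxcl2, Lilr4b, Cd14 and Lilrb4a, with r of 0.951, 0.949, 0.947, 0.945 and 0.934. Like Ccr1, all 5 had their highest mean over all sums in PMN-MDSCs. Lilr4b and Lilrb4a are near-identical copies, and reads that mapped to both would have been excluded with the other reads of several mapping positions. The nearest to Ccr2 were Prkx, Rap1a, Eif4e3, Fam26f and Gm23849, at 0.8294 to 0.809, and the nearest to Cx3cr1 were Rap1gap2, S1pr5 (a lipid receptor of NK cells and nonclassical monocytes), Slc12a2, Elmo2 and Ube2g2, at 0.796 to 0.745.

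Differences between tissues were tested on the summed cells of a lineage or label per sample, with edgeR's quasi-likelihood test over all genes that passed a filter on low counts and Benjamini-Hochberg adjustment. A gene was called at an adjusted p below 0.05. The members gave 33 tests in 23 comparisons, of which 2, or 6.06%, were called and 6 had an unadjusted p below 0.05. Over the 19 comparisons that tested a member, 1.35% of all gene tests were called. With summed cells of a lineage, a shift between its labels and a change within a label cannot be told apart by the sum alone, so that label shares are given beside the monocyte and macrophage results.

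Monocytes of Pre-MET lungs were compared with those of control lungs to ask how a distant tumor marks lung monocytes before metastasis. Ccr1 was at 41.5, 71.3 and 96.4 CPM in the Pre-MET lungs of mice 8, 9 and 10, and at 5.98, 4.11 and 20.8 CPM in the control lungs of mice 1, 2 and 3. Cx3cr1 was at 129.4, 85.5 and 70.0 CPM in Pre-MET lungs and at 370.5, 176.7 and 235.6 CPM in control lungs. For both genes the groups did not overlap, with all Pre-MET lungs higher in Ccr1 and all lower in Cx3cr1, as they did for 24.5% of the 4953 genes tested. The counts behind Ccr1 were small, with 98 UMIs in 759 Pre-MET monocytes and 5 UMIs in 372 control monocytes. Ccr1 passed the filter on low counts through the Pre-MET lungs, where it was high. Its fold change and call thus rest on a control group with almost no counts.

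Ccr1 rose by a log2 fold change of 2.82 (SE 0.76, adjusted p = 0.045) and Cx3cr1 fell by 1.48 on the log2 scale (SE 0.35, adjusted p = 0.022), where 4.32% of the 4953 genes tested were called. Ccr2 was at 471, 409 and 605 CPM against 365, 477 and 443, with a log2 fold change of 0.17 (SE 0.21, adjusted p = 0.73). Each call rests on few lungs, and control lungs were the only tissue of their sequencing batch. Batch and tissue thus cannot be told apart in these calls, and no batch term could be fitted. Left out 1 at a time, the Ccr1 call ended without the Pre-MET lung of mouse 8, 9 or 10 (log2 fold changes of 3.09, 2.84 and 2.53, adjusted p of 0.0864, 0.133 and 0.273) or the control lung of mouse 1 or 2 (2.66 and 2.39, adjusted p of 0.107 and 0.155), and stayed without that of mouse 3 (3.73, adjusted p = 0.0386). The Cx3cr1 call ended without the Pre-MET lung of mouse 9 or 10 (-1.36 and -1.25, adjusted p of 0.0997 and 0.121) or the control lung of mouse 1 or 3 (-1.08 and -1.52, adjusted p of 0.163 and 0.0502).

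Both genes moved together with the makeup of the monocytes. Mon Ace, the label with the highest Cx3cr1 and the lowest Ccr1 among monocytes, made up 59.0 ± 4.14% of control monocytes and 22.6 ± 4.01% of Pre-MET monocytes (SD, n = 3 each), while Mon Fn1 made up 23.9 ± 0.944% and 69.6 ± 5.65%. Within Mon Fn1, Cx3cr1 averaged 214 ± 11.0 CPM in control and 83.2 ± 51.1 in Pre-MET lungs, and Ccr1 28.9 ± 22.6 and 88.6 ± 34.5. In Mon Fn1 cells alone the log2 fold changes were -1.36 for Cx3cr1 (adjusted p = 0.317) and 1.78 for Ccr1 (adjusted p = 0.375), both no longer called. In Mon Ace alone Cx3cr1 was at 265 ± 240 CPM in control and 109 ± 34.6 in Pre-MET lungs (-1.32, adjusted p = 0.508), and Ccr1 had no UMI in the 3 control sums and 11.8 ± 11.1 CPM in Pre-MET lungs. Summed markers of other cells also differed in the monocyte sums, with 4 neutrophil markers at 275 to 665 CPM in control and 1055 to 1993 in Pre-MET lungs, 3 NK markers at 90.4 to 215 and 15.1 to 34.2, 5 macrophage markers at 3437 to 4562 and 910 to 952, and 5 alveolar macrophage markers at 682 to 1243 and 1525 to 2766. Pooled over monocytes of all tissues, Chil3 held 1713 CPM of the alveolar list and its other genes 0.639 to 113 CPM. In the macrophage list, Apoe held 1164 and Adgre1 345 CPM, and the other genes 9.65 to 38.3 CPM. These lists thus rest on few genes in monocytes, and their sums do not measure the content of macrophages. The part of any of these markers in the result was not tested.

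**Figure D2:**
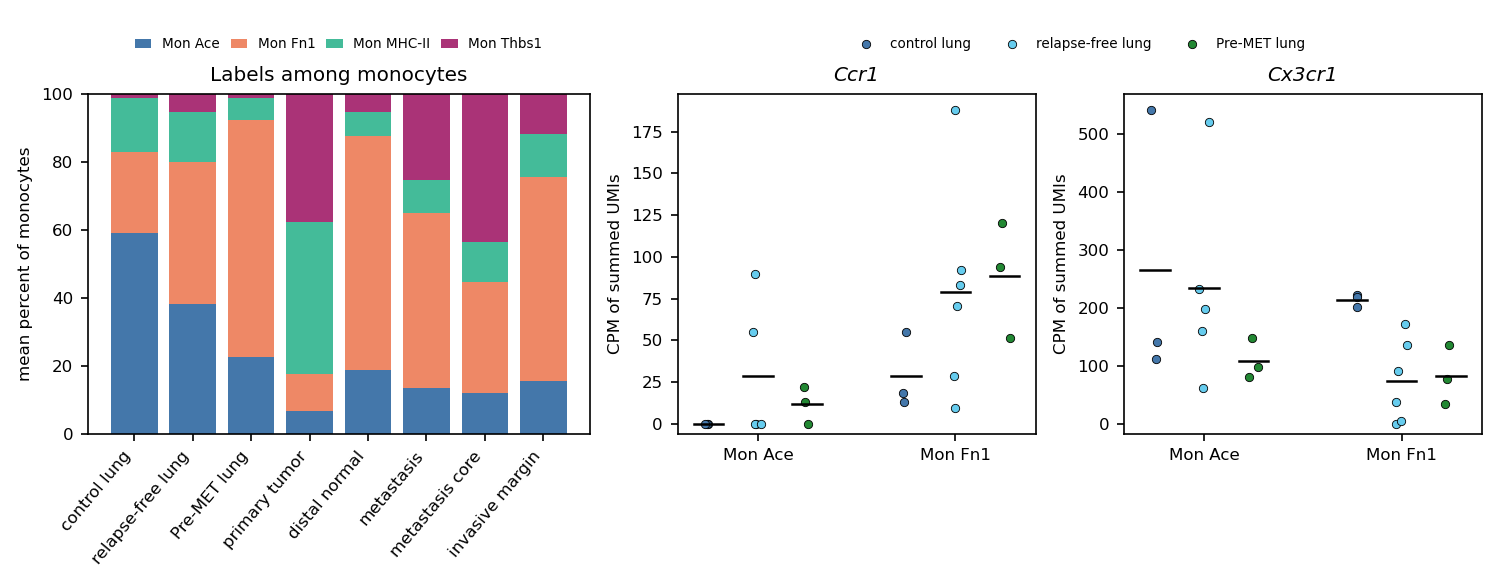
Share of the 4 monocyte labels among monocytes in each tissue (stacked mean percent), and Ccr1 and Cx3cr1 (CPM) in Mon Ace and Mon Fn1 sums of control, relapse-free and Pre-MET lungs, with a line at the mean. Mon Ace takes 59.0% of control and 22.6% of Pre-MET monocytes, and within Mon Fn1 the Cx3cr1 mean is 214 CPM in control and 83.2 CPM in Pre-MET lungs.

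Relapse-free lungs stood between these groups in makeup, with 38.3% Mon Ace and 41.6% Mon Fn1. Their monocytes had Ccr1 at 4.06 to 123.9 CPM (mean 50.4 ± 40.0, n = 6) and Cx3cr1 at 28.6 to 244.6 CPM (122 ± 73.6), ranges that cover the Pre-MET lungs. The Ccr1 range also covers the control lungs, and the Cx3cr1 range covers all of them but the highest, at 370.5 CPM. Relapse-free and control lungs were not tested against each other. Against relapse-free lungs no member was called, with Pre-MET log2 fold changes of 0.45 for Ccr1 (SE 0.56, adjusted p = 0.94), -0.35 for Ccr2 (adjusted p = 0.89) and -0.40 for Cx3cr1 (adjusted p = 0.93), where 0.0447% of all genes were called. Within Mon Fn1, Ccr2 was at 509 ± 87.8 CPM in Pre-MET lungs and 906 ± 335 in relapse-free lungs, a log2 fold change of -0.73 (SE 0.33, adjusted p = 0.887), where 0.0427% of genes were called. Without mice 6 and 7, the monocyte values were 0.01 for Ccr1, -0.58 for Ccr2 and -0.42 for Cx3cr1, and Ccr2 in Mon Fn1 was -1.01 (adjusted p = 0.336), with none of them called.

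Across all tissues, Ccr1 had the widest range in monocytes. From the lowest mean to the highest it was 10.3 ± 9.14 CPM in control lungs, 50.4 ± 40.0 in relapse-free lungs, 69.7 ± 27.5 in Pre-MET lungs, 99.1 ± 62.9 in distal normal tissue (n = 14), 111 ± 57.6 in invasive margins (n = 6), 205 ± 145 in metastases (n = 13), 315 ± 215 in cores (n = 13) and 427 ± 49.6 in primary tumors (n = 4). The intervals of mean ± SD overlapped between all neighbours in this order. Over pooled cells thinned to 500 UMIs, Ccr1 was seen in 15.7% of core monocytes, 13.5% in primary tumors, 7.82% in metastases, 3.72% in margins, 3.57% in distal normal tissue, 1.84% of Pre-MET, 1.28% of relapse-free and 0% of control monocytes. The mean of the samples' own shares put primary tumors above cores, at 13.5% and 11.0%, and distal normal tissue above margins, at 3.06% and 2.82%, so that the order within both pairs depended on the pooling. Ccr2 varied less, from 428 ± 57.7 CPM in control lungs to 765 ± 162 in primary tumors. Cx3cr1 ran from 261 ± 99.3 CPM in control lungs down to 16.2 ± 11.5 in primary tumors.

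**Figure D3:**
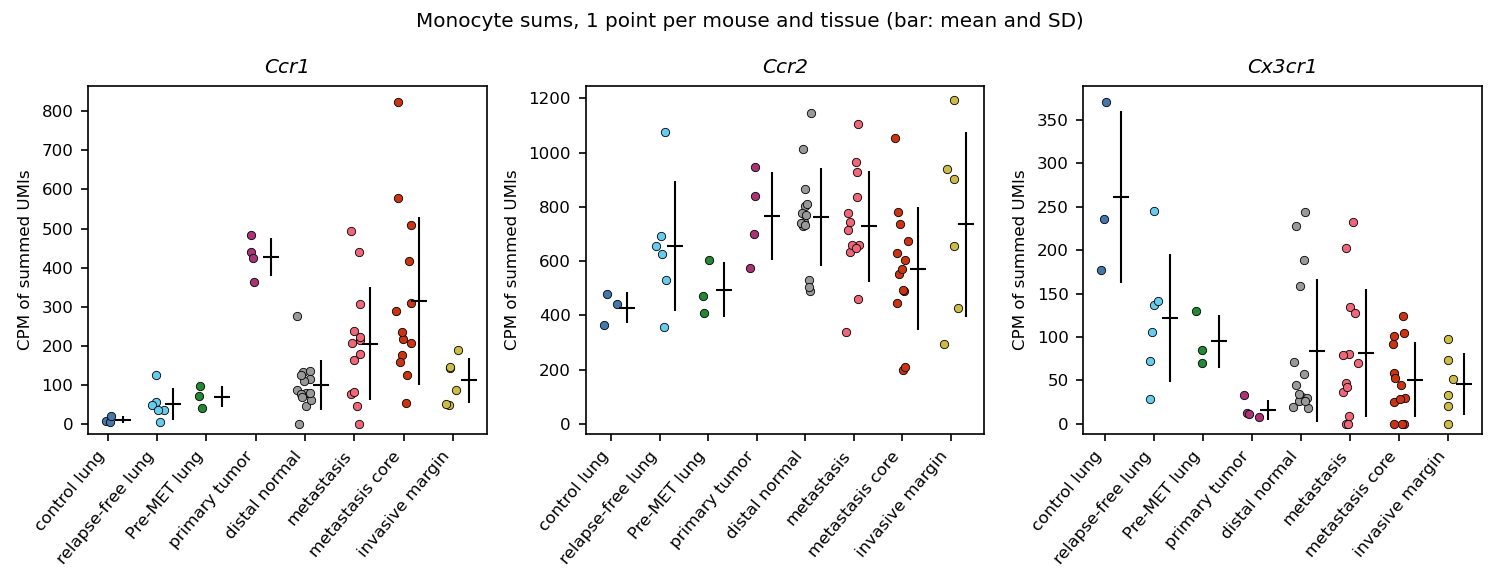
CPM of Ccr1, Ccr2 and Cx3cr1 in the summed monocytes of each sample in 8 tissues, with mean and SD as bars. Ccr1 means run from 10.3 CPM in control lungs to 427 CPM in primary tumors and Cx3cr1 means from 261 to 16.2 CPM in the same tissues, while Ccr2 means stay between 428 and 765 CPM.

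Metastases were compared with distal normal tissue of the same lungs. Monocyte Ccr1 had a lowest, median and highest value of 0, 82.9 and 276.5 CPM in distal normal tissue and 0, 206.6 and 492.7 CPM in metastases. The groups overlapped, and within mice the metastasis was higher in 11 of 13. The log2 fold change was 0.98 (SE 0.34, adjusted p = 0.20) without and 0.93 (adjusted p = 0.038) with the mouse as a block, so that the gene was called in the paired fit, where 79 genes were called against 31, or 1.48% of all tested, without it. Without the filter on low counts it was also called (0.99, adjusted p = 0.049). Ccr2 was at 728 ± 204 CPM in metastases and 761 ± 180 in distal normal tissue, with a log2 fold change of -0.04 (adjusted p = 0.99) and higher values in metastasis in 5 of 13 mice. Cx3cr1, at 81.7 ± 73.9 and 84.2 ± 82.5 CPM, did not pass the filter on low counts.

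The monocyte makeup differed here too, with Mon Thbs1, the label highest in Ccr1, at 5.28 ± 4.77% in distal normal tissue and 25.5 ± 18.8% in metastases. Within Mon Fn1, Ccr1 was at 124 ± 69.0 CPM in distal normal tissue and 235 ± 315 in metastases (n = 13 each). The medians were 134.7 and 146.8 CPM, and the highest metastasis was at 1234 CPM. The log2 fold change was 0.35 (adjusted p = 0.9995), or 0.16 with the mouse as a block. By edgeR 0% of genes were called (17 at an unadjusted p below 0.05, and 0 by DESeq2).

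Cores and invasive margins, told apart by photoactivation, were compared next. Monocyte Ccr1 ran from 52.5 over a median of 234.1 to 823.8 CPM in the 13 cores, and from 48.5 over 115.1 to 190.2 CPM in the 6 margins with at least 10 monocytes. Most cores were above the highest margin, and in the 5 mice with both tissues the core was higher in 4. The log2 fold change of 1.48 (SE 0.44, adjusted p = 0.209) was not called, and with the mouse as a block it was 1.46 (adjusted p = 0.053). edgeR called 0% of genes in this comparison (84 at an unadjusted p below 0.05, 58 in the paired fit, and 5 by DESeq2). Ccr2 was at 572 ± 227 CPM in cores and 735 ± 341 in margins, a log2 fold change of -0.43 (adjusted p = 0.81), with the core higher in 1 of 5 mice. Mon Thbs1 made up 43.7 ± 23.8% of core and 11.7 ± 12.1% of margin monocytes. In Mon Fn1 alone, Ccr2 was at 634 ± 257 CPM in cores (n = 7) and 856 ± 269 in margins (n = 5), a log2 fold change of -0.44 (adjusted p = 0.97), where again 0% of genes were called (26 at an unadjusted p below 0.05, and 0 by DESeq2).

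**Figure D4:**
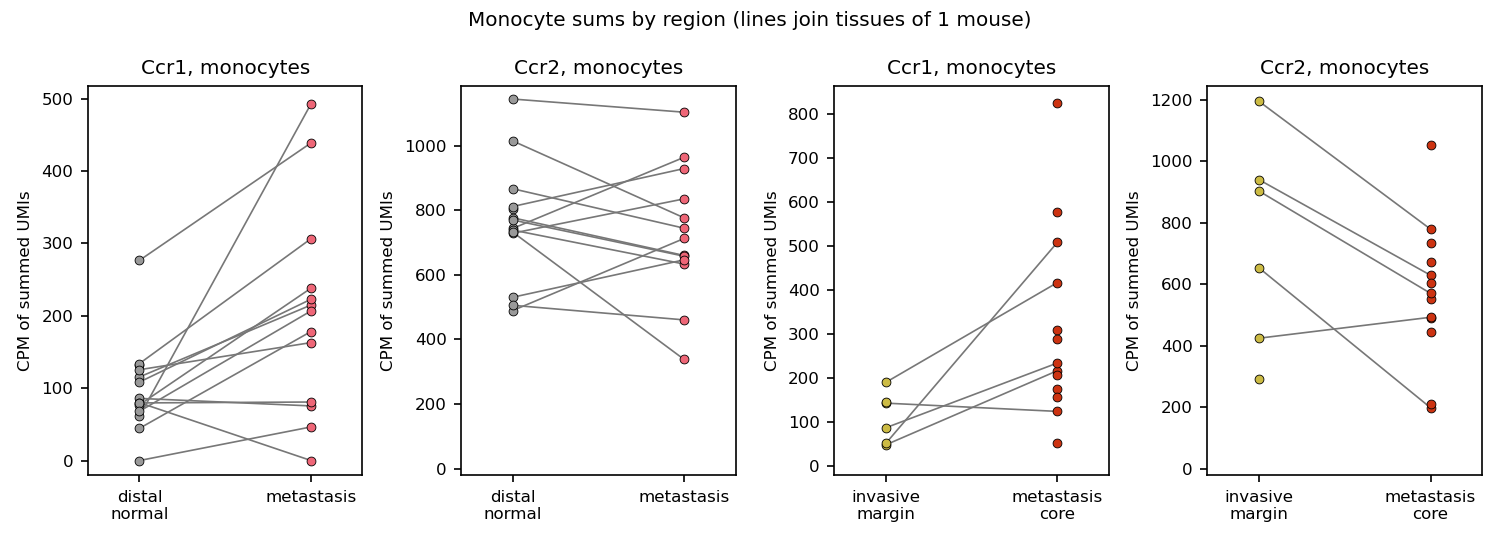
CPM of Ccr1 and Ccr2 in summed monocytes of distal normal tissue and metastasis, and of invasive margin and core, with a line joining the tissues of 1 mouse. Ccr1 is higher in metastasis in 11 of 13 mice and in the core in 4 of 5, while Ccr2 is higher in metastasis in 5 of 13 and in the core in 1 of 5.

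Primary tumors and cores had similar shares of Mon Thbs1, at 37.8 ± 9.20% and 43.7 ± 23.8% of monocytes, and different shares of Mon MHC-II, at 44.6 ± 8.91% and 11.8 ± 10.4%. In primary tumors, monocyte Ccr1 was at 362.6, 423.7, 440.8 and 482.2 CPM in mice 8, 9, 38 and 10, a narrow range inside that of the cores. The log2 fold change against cores was 0.42 (SE 0.38, adjusted p = 0.73), and that of Ccr2 was 0.53 (SE 0.31, adjusted p = 0.56), where 1.47% of genes were called. Cx3cr1 had 16.2 ± 11.5 CPM in primary tumors and 50.8 ± 42.8 in cores and did not pass the filter. In Mon Thbs1 alone, Ccr1 was at 493 ± 145 CPM in primary tumors (n = 4) and 555 ± 254 in cores (n = 8), a log2 fold change of -0.11 (adjusted p = 0.92), and Ccr2 at 823 ± 239 and 642 ± 205 (0.51, SE 0.33, adjusted p = 0.52), where 1.24% of genes were called. With sequencing batch as a term, the Ccr2 value in Mon Thbs1 turned to -0.36 and was not called. Mon MHC-II of primary tumors also held more Ccr1 on average than that label in any other tissue, at 454 ± 36.1 CPM (n = 4) against 8.10 to 173 CPM where it had at least 3 sums.

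Macrophage Ccr2 differed most between core and margin among the macrophage results. It was at 12.1, 58.1, 82.3 and 292.7 CPM in the margins of mice 36, 33, 32 and 17, and at 62.0 to 1019 CPM with a median of 493.8 in 10 cores. Of the cores, 8 lay above the highest margin, and the core was higher in both mice with the 2 tissues. The log2 fold change was 2.03 (SE 0.60, adjusted p = 0.178), or 3.21 (adjusted p = 0.0944) without the margin of mouse 17 and 1.38 with sequencing batch as a term, and it was not called in any of these fits. edgeR called 0% of genes (178 at an unadjusted p below 0.05, and 12 by DESeq2). Ccr1 was at 299 ± 120 CPM in cores and 244 ± 143 in margins, with a log2 fold change of 0.21 (adjusted p = 0.93). Mregs, low in Ccr2, made up 79.4 ± 14.4% of margin and 23.5 ± 18.8% of core macrophages, and Mac Isg20 13.8% and 56.4%. Within Mregs, Ccr2 averaged 13.2 ± 18.8 CPM in margins (n = 4), 56.8 ± 60.5 in metastases (n = 7) and 193 ± 145 in cores (n = 3). The 5 macrophage markers summed to 3800 to 31846 CPM in margin macrophages (median 15502) and 1730 to 19995 in core macrophages (median 3135). The 6 monocyte markers summed to 15608 to 39892 and 7698 to 29587 CPM, but most of that sum in macrophages was Lyz2, which was highest in Mregs, so the sum does not measure monocyte content. The part of either list in the result was not tested.

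**Figure D5:**
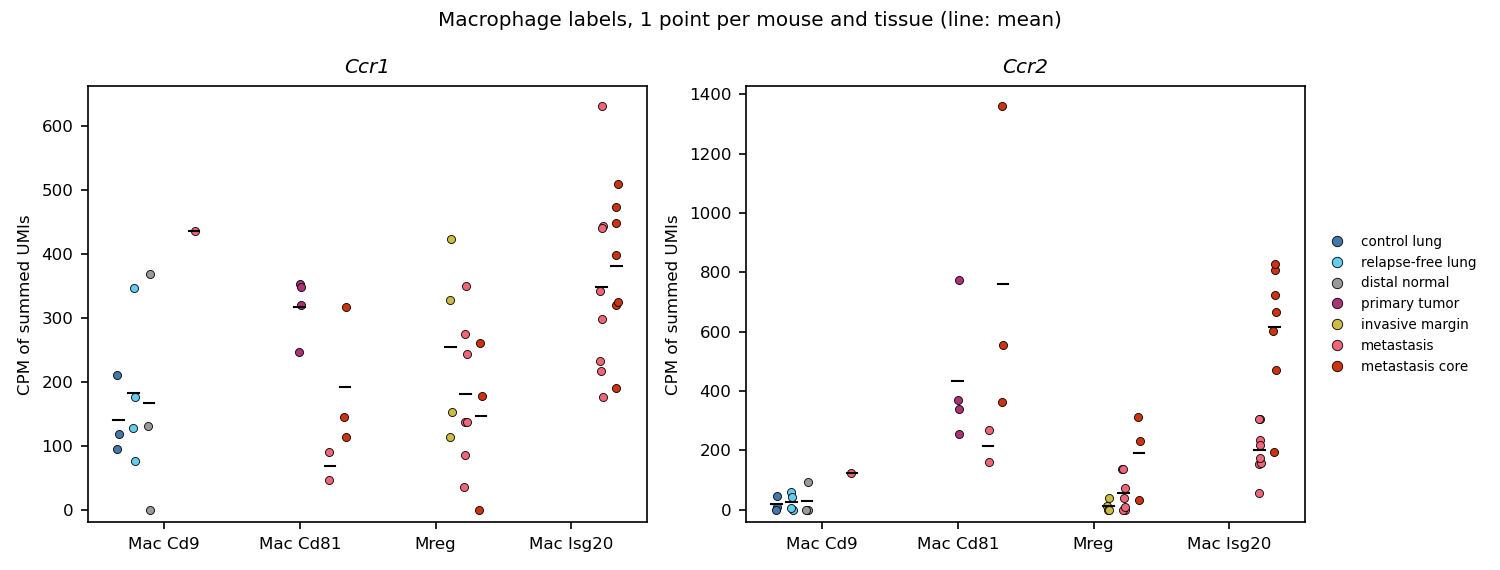
CPM of Ccr1 and Ccr2 in summed Mac Cd9, Mac Cd81, Mreg and Mac Isg20 cells of each sample, by tissue, with a line at the mean. Ccr2 in Mac Isg20 lies at 196 to 829 CPM in cores and 58.0 to 307 CPM in whole metastases, and Mregs of the margin average 13.2 CPM, while Ccr1 in Mac Isg20 and Mregs overlaps between tissues.

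Macrophages of metastases and distal normal tissue had Ccr1 at 244 ± 81.7 (n = 9) and 162 ± 158 CPM (n = 6), a log2 fold change of 0.97 (SE 0.49, adjusted p = 0.235), and Ccr2 at 181 ± 98.5 and 184 ± 198 (0.19, adjusted p = 0.90), in a comparison where 9.54% of genes were called. Mac Cd9 made up 7.65 ± 8.88% of macrophages in metastases and 63.6 ± 25.2% in distal normal tissue, and Mac Isg20 39.2 ± 18.0% and 7.19 ± 4.53%. Between primary tumors and cores, Ccr1 was at 308 ± 49.2 (n = 4) and 299 ± 120 CPM (0.03, adjusted p = 0.98) and Ccr2 at 420 ± 208 and 496 ± 250 (-0.22, adjusted p = 0.86), where 4.53% were called. With sequencing batch as a term, the Ccr2 value turned to 0.88 and was not called. The labels differed, since Mac Cd81 made up 80.9% of macrophages in primary tumors and 19.7% in cores. In Mac Cd81, Ccr1 averaged 317 ± 49.2 CPM in primary tumors (n = 4), 192 ± 110 in cores (n = 3) and 68.2 ± 30.8 in metastases (n = 2), so that the tumors lay above both metastases. The alveolar Mac Cd9 cells had similar Ccr1 means of 141 ± 61.2 CPM in control, 182 ± 117 in relapse-free and 166 ± 187 in distal normal lung.

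Neutrophil Ccr1 was high in every tissue and called in none of the 4 comparisons. In Pre-MET lungs it was at 492.4, 609.1 and 733.8 CPM, and in control lungs at 731.1, 866.2 and 1476 CPM, so that the groups overlapped by 1 lung. The log2 fold change was -0.80 (SE 0.45, adjusted p = 0.65), where 1.06% of genes were called, and -0.59 (adjusted p = 0.83) against relapse-free lungs at 942 ± 281 CPM (n = 5), where 0% were called by edgeR (142 at an unadjusted p below 0.05, and 0 by DESeq2). Metastases and distal normal tissue had 923 ± 240 and 823 ± 248 CPM (n = 9 each), a log2 fold change of 0.17 (adjusted p = 1.0), with 0% of genes called (26 at an unadjusted p below 0.05, and 0 by DESeq2). The 6 cores ran from 409.6 to 2500.0 CPM and the 5 margins from 195.1 to 1433 CPM, with a log2 fold change of 0.35 (adjusted p = 0.81), or 0.79 (adjusted p = 0.44) with the mouse as a block, where 0.463% of genes were called without it.

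NK cell Ccr2 differed between the 3 kinds of whole lung by less than its spread. It was at 286 ± 94.2 CPM in Pre-MET lungs, 242 ± 64.9 in control lungs (n = 3 each) and 218 ± 113 in relapse-free lungs (n = 6). The log2 fold changes of Pre-MET lungs were 0.01 (SE 0.63, adjusted p = 0.998) against control and 0.14 (adjusted p = 0.97) against relapse-free lungs. Under other settings of the fit with all samples kept or a group narrowed, they ran from -0.49 to 0.12 and from -0.21 to 1.10. Neither was called under any of these settings. edgeR called 0% of genes in both comparisons, where 137 and 388 had an unadjusted p below 0.05 and DESeq2 called 2 and 0. In the other NK comparisons and in T cells no member passed the filter on low counts. Their Ccr2 levels were 333 ± 181 CPM in metastases (n = 8) and 203 ± 166 in distal normal tissue (n = 7) for NK cells, and 93.1 ± 108 and 140 ± 117 for T cells (n = 13 each). NK Cx3cr1 had means of 27.6 to 84.0 CPM over the lung tissues. T cell Cx3cr1 had its highest mean, 59.4 ± 54.9 CPM, in control lungs (n = 3), with a spread almost as large as the mean. DC of metastases had Ccr2 at 338 ± 288 CPM (n = 10) and those of distal normal tissue at 550 ± 422 (n = 3), a log2 fold change of -0.63 (SE 0.63, adjusted p = 0.85), where 0% of genes were called (47 at an unadjusted p below 0.05, and 0 by DESeq2).

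The ligands of the 3 receptors, 10 genes, were followed in the same fits. In Pre-MET against control monocytes, where 4.32% of all genes were called, 5 ligands were tested, 0 rose and 1 fell, namely Ccl5, a ligand of Ccr1 also known from NK and T cells, from 462 to 48.7 CPM (log2 fold change -3.27, adjusted p = 0.0001). It fell in the same direction against relapse-free monocytes (-2.96, adjusted p = 0.022), where 0.0447% of all genes were called, and within Mon Fn1 (-2.87, adjusted p = 0.0386), where 0.0427% were. The NK markers summed to 0 to 239 CPM in the relapse-free monocyte sums, against 15.1 to 34.2 in Pre-MET lungs, and their part in the fall was not tested. In metastasis monocytes, where 1.48% of all genes were called, 2 of 5 tested ligands rose, Ccl4 from 116 to 401 CPM (2.04, adjusted p = 0.0018) and Ccl2, the main ligand of Ccr2, from 98.9 to 338 CPM (1.90, adjusted p = 0.0154). The median over the tested ligands was 1.02, against 0.00 over all genes. Within Mon Fn1 2 ligands were tested and 0 called, with a median of -0.03 against -0.02, where 0% of all genes were called. Mon Thbs1 made up 5.28% of distal normal and 25.5% of metastasis monocytes, and its part in the rise was not tested. In core against margin monocytes 0 of 7 were called, with a median of 0.47 against -0.01.

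In macrophages the ligands differed most between primary tumors and cores, where 9 were tested, 1 rose and 3 fell, with 4.53% of all genes called. Ccl8, a Ccr2 ligand, was at 2957 CPM in primary tumors and 65.5 in cores (5.43, adjusted p = 0.0002), while Ccl2 was at 539 and 2921 CPM (-2.37, adjusted p = 0.0441), and Ccl3 and Ccl6 fell as well (log2 fold changes of -2.19 and -2.0001). The median was -1.56 against 0.01 over all genes. Mac Cd81 made up 80.9% of macrophages in primary tumors and 19.7% in cores, and its part in these calls was not tested. Ccl2 was also lower in Mon Thbs1 of primary tumors (-2.33, adjusted p = 0.0112), as was Ccl4 (-2.26, adjusted p = 0.0433), with 1.24% of all genes called. In macrophages of metastases, Ccl4 rose (2.32, adjusted p = 0.037) and Ccl6 fell (-1.23, adjusted p = 0.0151) among 7 tested, with 9.54% of all genes called. Mac Cd9 made up 7.65% of macrophages in metastases and 63.6% in distal normal tissue, and its part in these calls was not tested. In core neutrophils Ccl4 rose from 291 to 9603 CPM (4.88, adjusted p = 0.0066), as 1 of 3 tested, with 0.463% of all genes called.

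Of the 20 other chemokine receptors few had counts to test. Cxcr4, which binds Cxcl12 and holds leukocytes in tissue and marrow, fell from 234 to 92.6 CPM in Pre-MET monocytes (-1.36, adjusted p = 0.0495) as 1 of 2 tested, beside 4.32% of all genes. Of 13 genes that pass on the signal of these receptors, Rgs2, a brake on G protein signals, fell in Pre-MET monocytes (-0.92, adjusted p = 0.0175), as 1 of 12 tested beside the same 4.32%, and Arrb2, an arrestin that ends receptor signalling, was higher in primary tumor than in core macrophages (1.70, adjusted p = 0.0219), as 1 of 8 tested beside 4.53% of all genes. Control lungs were the only tissue of their sequencing batch. Batch and tissue thus cannot be told apart in the Ccl5, Cxcr4 and Rgs2 calls against control. Against relapse-free monocytes, 0 of 2 tested receptors and 0 of 13 signal genes were called, where 0.0447% of all genes were. The calls of the 3 lists come from the main fit and were not run under other settings. Comparisons that share control or core samples are not independent of each other.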

How the data were processed

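Single CD31-negative cells, gated on CD45, on photoactivated GFP or on both, were sorted into 384-well plates (SPID-seq) and the authors deposited raw UMI counts per gene and well, without normalization. Per the labels and Methods, reads were demultiplexed with bcl2fastq 2.15.0.4 and mapped to mm10 with HISAT, reads with several mapping positions were excluded and UMIs were assigned to exons. Cells under 500 UMIs were discarded. The gene annotation version is not given in the sources used here. Subpopulation labels came from the authors' own annotation table and were used as given, without new clustering and without a doublet caller. Wells labelled erythrocyte, outlier or tumor, and wells without annotation, were left out.

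UMIs were summed per label or lineage in each sample (1 tissue of 1 mouse) with at least 10 cells. The sum is the replicate, not the cell. Sums were tested with edgeR 4.0.16 (TMM, filterByExpr, quasi-likelihood F test, Benjamini-Hochberg) in R 4.3.3, with at least 3 sums per group. Fold changes of CPM between labels used log2(CPM + 10). Shares of cells were taken after thinning each cell to 500 UMIs. DESeq2 1.42.0, no TMM factors, no filter, cells of at least 1000 UMIs, sums of at least 20 cells, batch as a term, a mouse block, leaving out plates sorted by GFP from relapse-free lungs and leaving out 1 sample were alternatives, and fits of single labels and without relapse-free mice 6 and 7 were added after seeing the data. Tables were made with Python 3.11.15 and pandas 2.3.3, and the fit was tested on simulated data.

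Plates came from 12 sequencing batches. A shared mouse pairs tissues of 1 animal. In monocyte sums, over 1822 genes, deviations from the tissue mean correlated at a mean of 0.274 (0.107 to 0.706) between metastasis and distal normal tissue of 1 mouse and at -0.018 between mice, and at 0.329 (0.017 to 0.592) against -0.020 for core and margin. The genes named are the 3 members, called genes of 3 lists written by hand (other chemokine receptors, ligands of the members, signal transduction) and, for each member, the 5 genes most correlated over labels among those with a mean of at least 50 CPM in a label. Members and lists were chosen with earlier results of these data known. A single called gene of these lists is not reported here.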

Additional observations from a re-analysis of the deposited data

Results flagged for a closer look

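Of 54 groups of 4 to 10 sums, 15 held a sample far from the others by Dixon's test. In 9 of the 15 all other sums were at 0, so that any UMI sets the sample apart and the rate of about 1 in 20 groups that chance gives for this test does not apply to them. The other 6 also rest on few UMIs. In macrophages of distal normal tissue, Ccr1 was at 470.33 CPM in mouse 33 (6 UMIs in 14 cells), with the others at 35.3 to 170 CPM, and Cx3cr1 at 214.915 CPM in mouse 26 (3 UMIs). In margin macrophages Cx3cr1 was at 29.0328 CPM in mouse 33 (4 UMIs). In neutrophils, Ccr2 was at 42.2636 CPM in the relapse-free lung of mouse 6 (1 UMI), 100.79 in the metastasis of mouse 28 (5 UMIs), 63.3513 in the core of mouse 30 (1 UMI) and 25.2693 in the margin of mouse 17 (12 UMIs). Neutrophil Cx3cr1 was at 7.53516 CPM in distal normal tissue, 5.73049 in the core and 2.10578 in the margin of mouse 17, and at 14.4696 in the metastasis of mouse 32. In NK cells, Ccr1 was at 114.194 CPM in distal normal tissue of mouse 34 (1 UMI), 14.7909 in the metastasis of mouse 24 and 8.62006 in the margin of mouse 17. The margin of mouse 17 also held NK Cx3cr1 at 137.921 CPM, with 32 UMIs in 116 cells, while the other margins had none.

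Wells outside the analysis also held Ccr1 and Ccr2. Among 22460 wells with at least 100 but fewer than 500 UMIs, 4.22% had a Ccr1 UMI (95% exact binomial interval 3.962 to 4.492) and 2.44% a Ccr2 UMI (2.238 to 2.646). Of 336 wells labelled erythrocyte, 17.6% had Ccr1 (13.644 to 22.058) and 6.85% Ccr2 (4.388 to 10.094). Of 165 wells labelled outlier, 9.09% had Ccr1 (5.178 to 14.551) and 13.3% Ccr2 (8.548 to 19.488). Of 128 wells with at least 500 UMIs but no annotation, 7.03% had Ccr1 (3.265 to 12.928) and 8.59% Ccr2 (4.368 to 14.856). The 592 wells left empty gave 0.676% and 0.507%, with upper bounds of 1.721 and 1.474. The intervals cover counting error only.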

How the results depend on the processing

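The 33 tests were run under 302 alternatives, of which 256 kept direction and call, 13 lost a call, 2 gained one and 31 turned the sign. The sign turned in 14 results, none of them called and none with a log2 fold change over 0.63 in size. Fits that gave no adjusted p for a gene are not counted. Only the 2 called results could lose a call, and both come from Pre-MET against control monocytes. Beside the fits with 1 lung left out, Ccr1 had 5 alternatives there and Cx3cr1 had 7. There Ccr1 was 1.78 in Mon Fn1 cells alone, and 2.39 to 3.73 with 1 lung left out. Cx3cr1 was -1.48 with cells of at least 1000 UMIs, -1.36 in Mon Fn1 alone, -1.32 in Mon Ace alone, and -1.75 to -1.08 with 1 lung left out. Adjusted p ranged from 0.0234 to 0.375 for Ccr1 and from 0.00767 to 0.508 for Cx3cr1. Monocyte Ccr1 in metastasis was called without the filter (0.99) and with the replicate block of mouse (0.93), adjusted p 0.0384 to 0.389 over its alternatives, and the block changed no other call. Fewer cells enter the single-label fits and those of at least 1000 UMIs, and fewer lungs the fits with 1 left out, and beyond that the cause was not tested.

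Signs turned as follows. In cells of at least 1000 UMIs, Ccr2 was -0.0098 in Pre-MET against control and 0.0035 in metastasis against distal normal monocytes. In Mon Fn1 alone, Ccr2 was -0.35 in Pre-MET against control. Without the filter, Ccr2 was 0.0029 in metastasis monocytes, 0.059 in primary tumor against core macrophages, and -0.49 and -0.21 in Pre-MET NK cells against control and relapse-free, Cx3cr1 was 0.010 in Pre-MET against relapse-free Mon Fn1, and Ccr1 0.054 in primary tumor against core Mon Thbs1. Without TMM, Ccr2 was -0.085 in metastasis macrophages. With batch as a term, Ccr1 was -0.080 in core against margin macrophages, and Ccr2 0.88 in macrophages and -0.36 in Mon Thbs1 of primary tumor against core. Without relapse-free mice 6 and 7, Ccr1 was -0.30 and Cx3cr1 0.011 in Pre-MET against relapse-free Mon Fn1. In Mregs alone, Ccr1 was -0.66 in core against margin. DESeq2 gave -0.00042 for Ccr1 in primary tumor against core macrophages, and sums of at least 20 cells -0.063 there and -0.027 in core against margin neutrophils. With 1 sample left out, the ranges were -0.0053 to 0.57 for Ccr1 in core against margin macrophages, -0.043 to 0.093 in primary tumor against core macrophages and -0.28 to 0.11 in Mon Thbs1, -0.46 to 0.12 and -0.29 to 0.18 for Ccr2 in Pre-MET NK cells against control and relapse-free, -1.08 to 0.20 in DC, and -0.026 to 0.48 for Ccr1 and -0.58 to 0.37 for Cx3cr1 in Pre-MET against relapse-free Mon Fn1. At this depth Cx3cr1 passed the filter on low counts in 3 of 23 comparisons, and depth and low expression cannot be told apart there.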

Other observations

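The values here were picked after they were seen and carry no test. In Mac Isg20, Ccr2 averaged 614 ± 222 CPM in cores (SD, n = 7) and 201 ± 83.3 in whole metastases (n = 8), and was higher in the core in 4 of 4 mice with both. Ccr1 in the same cells averaged 380 ± 110 and 347 ± 151 CPM. Over all macrophages, Ccr2 was at 496 ± 250 and 181 ± 98.5 CPM, with the core higher in 5 of 7 mice. The cores came from the photoactivated gate and the whole metastases from the CD45 gate.

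Mice 8, 9 and 10 gave both a primary tumor and a Pre-MET lung. Monocyte Ccr1 and Ccr2 were higher in the tumor in 3 of 3 mice, and Cx3cr1 was higher in the tumor in 0 of 3. In Mon Fn1 of these mice, the tumors averaged 1106 ± 409 CPM of Ccr2 and the lungs 509 ± 87.8 (SD, n = 3 each). The median cell of primary tumors held 3148 UMIs and that of Pre-MET lungs 1020.5.

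In thinned Mon Fn1 cells, Ccr1 and Ccr2 were seen together in 48 of 3053 cells, where independent detection gives 33.8, and Ccr1 and Cx3cr1 in 1, where it gives 3.70. In Mon Ace, Ccr2 and Cx3cr1 were seen together in 8 of 1375 cells against 9.04. Wells with at least 100 but fewer than 500 UMIs held 12.2% of all Ccr1 UMIs, at 242.6 CPM.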
